A study of Homo sapiens with 6 samples.

Results

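The Hippo pathway components described here were 10 genes chosen by name as parts of the pathway and not as its targets: the coactivators YAP1 and WWTR1 (the gene of TAZ), the DNA-binding partners TEAD1, TEAD2, TEAD3 and TEAD4, the kinases LATS1 and LATS2, the scaffold SAV1 and the upstream regulator NF2 (the gene of merlin). All 10 had a row among the 60651 gene rows of the deposited counts, and all 10 passed the filter on low counts, which left 15589 genes tested.

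In the Hippo pathway the MST kinases (genes STK3 and STK4), held by the scaffold SAV1, activate the LATS kinases and their partner MOB1, with merlin helping to bring LATS to the membrane. LATS phosphorylates YAP and TAZ, which are then kept in the cytoplasm or degraded. Without that phosphorylation YAP and TAZ enter the nucleus and bind TEAD proteins, which recruit them to genes of growth, adhesion and the cytoskeleton. In triple-negative breast cancer the pathway is studied for its place in growth, invasion and the response to matrix and cell density. Phosphorylation and location of these proteins are not read by RNA counts, so every value below is a transcript level.

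RNA was sequenced from MDA-MB-231, an established human line of triple-negative breast cancer that grows as mesenchymal-like cells and is known to carry an inactivating mutation of NF2. The line was labelled wild type, and all groups were kept for 24 h in culture medium with either the solvent DMSO as control, AF-EAE at 75 µg/ml, or AF-EAE at 150 µg/ml. AF-EAE is a plant extract, an ethyl acetate extract of Antenoron filiforme, and so a mixture and not 1 compound. Each group had 2 libraries, labelled as biological replicates. The sources used here do not give whether these were separate cultures. The p-values therefore cover the spread between libraries, which may be technical. Both doses were compared with the same DMSO libraries.

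The libraries held 15621103 to 17113722 reads counted in genes, and 3 reads corresponded to 0.175 to 0.192 CPM (counts scaled to a library total of 1000000). Levels below are CPM scaled by the trimmed mean of M-values (TMM) of edgeR, and differences are log2 fold changes with their standard error (SE) from edgeR's quasi-likelihood test over all 6 libraries, called at a Benjamini-Hochberg adjusted p under 0.05. For the line, 6 markers were listed: VIM, CD44, EGFR and the keratins KRT8, KRT18 and KRT19. Their sum was 2944 to 2951 CPM with DMSO, 2279 to 2347 CPM at 75 µg/ml and 1888 to 1910 CPM at 150 µg/ml. Of the 6, KRT19 went the other way, with means of 29.7, 33.1 and 35.9 CPM in the same order. Of the leukocyte markers, PTPRC and CD3E were at 0 in every library and ITGAM had at most 1 read. CD14 had 2 and 3 reads with DMSO (0.131 and 0.189 CPM) and 4 to 7 reads in the treated libraries (0.242 to 0.428 CPM). The 4 endothelial markers summed to 16.3 to 17.6 CPM with DMSO, 13.2 to 16.6 CPM at 75 µg/ml and 10.8 to 10.9 CPM at 150 µg/ml. Most of this was KDR, with means of 15.8, 13.1 and 9.08 CPM. PECAM1 (0.55, 0.819 and 1.10 CPM) and VWF (0.321, 1.00 and 0.623 CPM) were low and had higher means in the treated groups. The 5 fibroblast markers summed to 8.51 to 12.2, 14.4 to 14.8 and 12.4 to 15.4 CPM in the same order, with DCN at 0. The 6 luminal markers summed to 97.3 to 101.1, 110.3 and 89.2 to 95.9 CPM, with TFF1 at 0. Most of this was ERBB2, with means of 85.2, 98.1 and 84.3 CPM, followed by GATA3 at 13.9, 11.25 and 7.46 CPM. ESR1 was at 0.917 CPM or less, PGR had at most 1 read and FOXA1 at most 4 reads. The part of these marker levels in the results below was not tested. Fewer cells and less RNA per cell cannot be told apart in bulk RNA.

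Of the 10 components, 7 were called at 75 µg/ml against DMSO, 1 higher and 6 lower, where 38.6% of all genes tested were called, 19.2% higher and 19.4% lower. At 150 µg/ml against DMSO 6 were called, 1 higher and 5 lower, against 51.5% of all genes, 25.8% higher and 25.7% lower. Between the doses 2 were called, both higher at 150 µg/ml, against 22.0% of all genes, 9.51% higher. All components had a mean of at least 10 CPM, and among genes of that level the shares called were 51.0%, 65.3% and 32.0% in the same order. Read against these shares, the number of calls is not particular to the components. The libraries of the groups compared did not overlap for 10, 7 and 8 of the 10 components, against 68.5%, 74.8% and 60.6% of all genes. The median log2 fold change of the 10 was -0.22 at 75 µg/ml and -0.17 at 150 µg/ml, against 0.01 and 0.03 over all genes. With total counts in place of TMM, the medians were -0.09 and 0.01 for the 10, and 0.14 and 0.22 for all genes. The calls among the 10 became 3 higher and 4 lower at each dose. Over all genes 4501 were then called higher and 1816 lower with the lower dose, and 6031 and 2542 with the higher dose. The genes called in every setting tried, at both doses, were TEAD1, TEAD4, LATS2 and NF2, all lower.

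**Figure D1:**
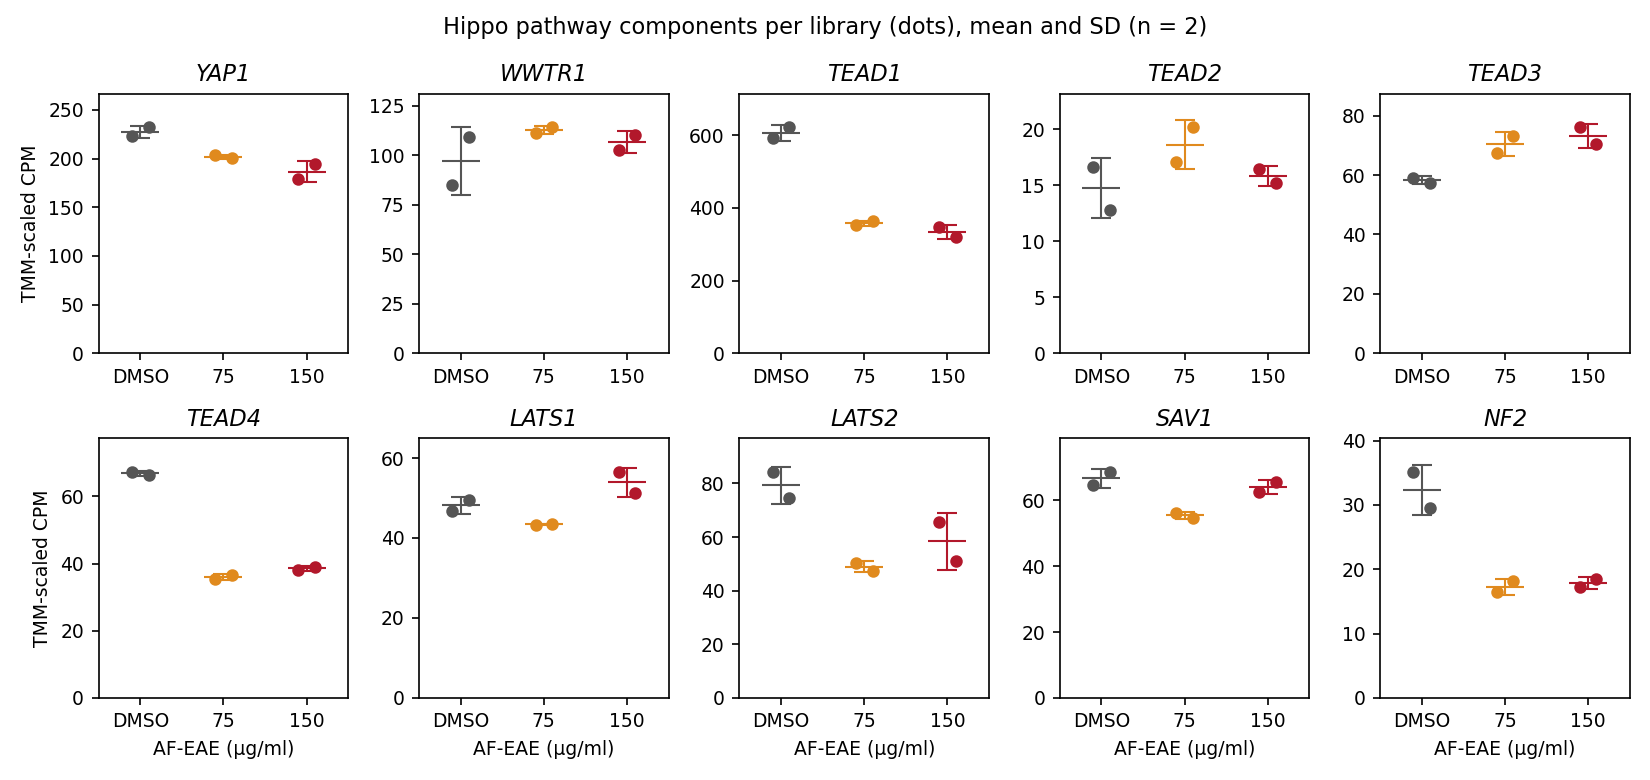
Level of each of the 10 genes (TMM-scaled CPM, vertical axes from 0, each gene on its own scale) in the 2 libraries of DMSO, 75 µg/ml and 150 µg/ml. Dots are libraries, with the mean and SD (n = 2). TEAD1, TEAD4 and NF2 sit lower in all 4 treated libraries than in both DMSO libraries, and TEAD3 sits higher.

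The stretches before the transcription start are shown for 4 components. These gave the range of responses among components with a RefSeq promoter: YAP1 fell slightly, LATS2 and NF2 fell further, and TEAD3 rose. Each stretch is the 250 bases before a start site in RefSeq (GRCh38.p14), written 5′ to 3′ on the gene's strand. Capitals mark GGAATG, a sequence that TEAD proteins are known to bind.
YAP1, chr11:102110197-102110446, plus strand: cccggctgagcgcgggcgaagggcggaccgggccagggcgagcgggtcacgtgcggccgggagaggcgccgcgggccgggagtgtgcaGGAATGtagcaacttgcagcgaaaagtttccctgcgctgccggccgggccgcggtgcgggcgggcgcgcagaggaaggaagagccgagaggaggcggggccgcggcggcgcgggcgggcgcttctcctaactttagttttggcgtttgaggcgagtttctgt
LATS2, chr13:21061587-21061836, minus strand: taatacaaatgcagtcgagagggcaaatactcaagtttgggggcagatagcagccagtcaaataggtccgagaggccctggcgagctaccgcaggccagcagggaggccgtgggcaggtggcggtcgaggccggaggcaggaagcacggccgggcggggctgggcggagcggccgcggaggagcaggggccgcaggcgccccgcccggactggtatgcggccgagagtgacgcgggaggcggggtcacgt
NF2, chr22:29603306-29603555, plus strand: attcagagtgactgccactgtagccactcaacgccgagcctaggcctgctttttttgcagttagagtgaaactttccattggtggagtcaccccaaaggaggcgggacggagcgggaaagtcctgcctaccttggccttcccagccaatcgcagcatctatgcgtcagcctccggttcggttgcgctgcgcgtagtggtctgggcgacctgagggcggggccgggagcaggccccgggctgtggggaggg
TEAD3, chr6:35497080-35497329, minus strand: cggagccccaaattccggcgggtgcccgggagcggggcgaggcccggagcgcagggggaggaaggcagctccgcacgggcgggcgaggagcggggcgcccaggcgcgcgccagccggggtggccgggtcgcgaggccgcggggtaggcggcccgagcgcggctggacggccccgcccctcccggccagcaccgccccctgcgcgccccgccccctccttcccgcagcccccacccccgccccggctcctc
By symbol, 8 of the 10 components matched the RefSeq promoters, with 12 windows in all. TEAD1 and TEAD4, both called lower in every setting, had no match and were not searched. GGAATG was searched on both strands (CATTCC on the other). It was found in 1 window, that of YAP1, starting 162 bases before the start site. Over all 35116 RefSeq promoter windows of the same length 11.9% held it, and 9.78% of the 15794 windows of genes tested here. A match is a description of letters and not of binding.

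YAP1 (ENSG00000137693.14, GRCh38 chr11:102110461-102233423, plus strand), the coactivator that joins TEADs on DNA, was at 223 and 232 CPM with DMSO, 203 and 200.1 CPM at 75 µg/ml, and 179 and 194 CPM at 150 µg/ml. Both treated groups lay below DMSO and did not overlap with it. YAP1 fell, with log2 fold changes of -0.17 (SE 0.052, adjusted p = 0.0133) at the lower dose and -0.29 (SE 0.0522, adjusted p = 1.7e-04) at the higher dose. Both calls ended under total-count scaling, where the log2 fold changes were -0.05 and -0.10, and that at 75 µg/ml also without DMSO replicate 2 or without replicate 2 of 75 µg/ml.

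WWTR1 (ENSG00000018408.15, chr3:149517235-149736714, minus strand), whose product TAZ is the close relative of YAP, was at 85.2 and 109 CPM with DMSO, 112 and 114 CPM at 75 µg/ml, and 103 and 110.5 CPM at 150 µg/ml. The DMSO libraries stood far apart, and the second lay inside the range of 150 µg/ml. The log2 fold changes of WWTR1 were 0.22 (SE 0.0842, adjusted p = 0.0516) at 75 µg/ml and 0.14 (SE 0.0843, adjusted p = 0.193) at 150 µg/ml, and neither passed the test. They were 0.045 and -0.037 without DMSO replicate 1, and WWTR1 was called higher at both doses without DMSO replicate 2 or under total-count scaling. At 75 µg/ml WWTR1 was called higher in 6 of 15 alternatives, among them no filter (adjusted p = 0.00733), a filter of 5 CPM in 2 libraries (adjusted p = 0.0329) and limma-voom (adjusted p = 0.0413).

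Per kb of merged exon, the scale on which genes can be set beside each other, the ratio of WWTR1 to YAP1 was 0.285 and 0.352 with DMSO, 0.41 and 0.427 at 75 µg/ml, and, at 150 µg/ml, 0.43 and 0.426. All 4 treated libraries lay above both DMSO libraries, and a ratio within a library does not move with the scaling between libraries. YAP1 stayed the more abundant transcript of the pair in every library. The summed level of the pair was 45.6 and 49.8 CPM per kb with DMSO, 45.6 and 45.3 at 75 µg/ml, and, at 150 µg/ml, 40.7 and 43.9. With 2 libraries against 2, the smallest two-sided p of an exact permutation test is 0.333, so ratios and shares are given here without a test.

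TEAD1 (ENSG00000187079.20, chr11:12674591-12944483, plus strand), which encodes a TEAD protein found in most tissues, was the most abundant of the 4 per kb in every library. Its level was 591 and 621 CPM with DMSO, 352 and 363 CPM at 75 µg/ml, and 348 and 319 CPM at 150 µg/ml. The 4 treated libraries lay far below both DMSO libraries. TEAD1 fell, with log2 fold changes of -0.76 (SE 0.0502, adjusted p = 3.5e-09) at 75 µg/ml and -0.86 (SE 0.0503, adjusted p = 2.2e-10) at 150 µg/ml, or 0.589 and 0.55 times the DMSO level. The doses differed by -0.10 (SE 0.0506, adjusted p = 0.189).

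TEAD4 (ENSG00000197905.10, chr12:2959330-3040673, plus strand), studied in the trophectoderm and in several carcinomas, was at 67.3 and 66.4 CPM with DMSO, 35.3 and 36.7 CPM at 75 µg/ml, and 38.0 and 39.1 CPM at 150 µg/ml. The replicates lay close together in each group. TEAD4 fell, with log2 fold changes of -0.89 (SE 0.0745, adjusted p = 6.5e-08) at 75 µg/ml and -0.79 (SE 0.0738, adjusted p = 8.4e-08) at 150 µg/ml. Its difference between the doses, 0.10 (SE 0.0772, adjusted p = 0.411), did not pass the test.

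TEAD3 (ENSG00000007866.22, chr6:35473597-35497076, minus strand), a TEAD known from placenta, was the 1 component called higher against DMSO with the filter and test used throughout. Other settings, TMM-scaled ones included, also called WWTR1 or TEAD2 higher. LATS1 was called higher at 150 µg/ml under total counts and, with TMM, under a filter of 5 CPM in 2 libraries. TEAD3 was at 59.1 and 57.2 CPM with DMSO, 67.5 and 73.2 CPM at 75 µg/ml, and 76.0 and 70.3 CPM at 150 µg/ml. The treated libraries lay above both DMSO libraries, and the doses overlapped. TEAD3 rose by 0.27 (SE 0.0715, adjusted p = 0.00565) at 75 µg/ml and 0.33 (SE 0.0712, adjusted p = 8.4e-04) at 150 µg/ml on the log2 scale. The call at 75 µg/ml ended without replicate 2 of that dose (adjusted p = 0.0891).

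TEAD2 (ENSG00000074219.14, chr19:49340595-49362457, minus strand), a TEAD known from the early embryo, was the least abundant of the 4 per kb. It was at 16.6 and 12.8 CPM with DMSO, 17.1 and 20.2 CPM at 75 µg/ml, and 16.4 and 15.2 CPM at 150 µg/ml. The DMSO libraries spread as widely as the groups lay apart, and 150 µg/ml lay inside the DMSO range. The log2 fold changes were 0.34 (SE 0.138, adjusted p = 0.0618) and 0.10 (SE 0.14, adjusted p = 0.576). At 75 µg/ml the value was 0.54 without DMSO replicate 1, 0.16 without DMSO replicate 2 and 0.21 without replicate 2 of that dose, and it was called higher in 5 of 15 alternatives. At 150 µg/ml it was 0.299 without DMSO replicate 1 and -0.077 without DMSO replicate 2. Of the exon bases of TEAD2, 10.7% overlap CD37, a leukocyte gene counted at 1.45 to 5.47 CPM, lowest with DMSO. The strand setting of the counts was not given, and the part of such overlaps was not tested. The genes that overlap exons of YAP1, WWTR1 and LATS1 were counted at 0.428 CPM or less.

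The composition of the TEAD transcripts differed between the treated and the DMSO libraries, with smaller shares of TEAD1 and TEAD4 and larger shares of TEAD3 and TEAD2. Per kb, TEAD1 made up 51.3% and 53.6% of the summed TEAD level with DMSO, 44.1% and 42.9% at 75 µg/ml, and, at 150 µg/ml, 41.8% and 40.6%. TEAD3 made up 17.3% and 16.7% with DMSO, 28.5% and 29.2% at 75 µg/ml, and, at 150 µg/ml, 30.8% and 30.2%. TEAD4 made up 26.4% and 25.9% with DMSO and 19.6% to 22.5% in the treated libraries. TEAD2 stayed under every other TEAD, at 4.98% and 3.82% with DMSO, 7.4% and 8.24% at 75 µg/ml, and, at 150 µg/ml, 6.81% and 6.68%. Its share was thus larger in the treated libraries, while its level did not pass the test at either dose. The ratio of TEAD1 to TEAD3 was 2.96 and 3.22 with DMSO, 1.54 and 1.47 at 75 µg/ml, and, at 150 µg/ml, 1.36 and 1.35. In DMSO TEAD4 ranked above TEAD3, and in all 4 treated libraries TEAD3 ranked above TEAD4. The summed TEAD level was 112 and 113 CPM per kb with DMSO and 76.4 to 82.2 CPM per kb in the treated libraries.

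**Figure D2:**
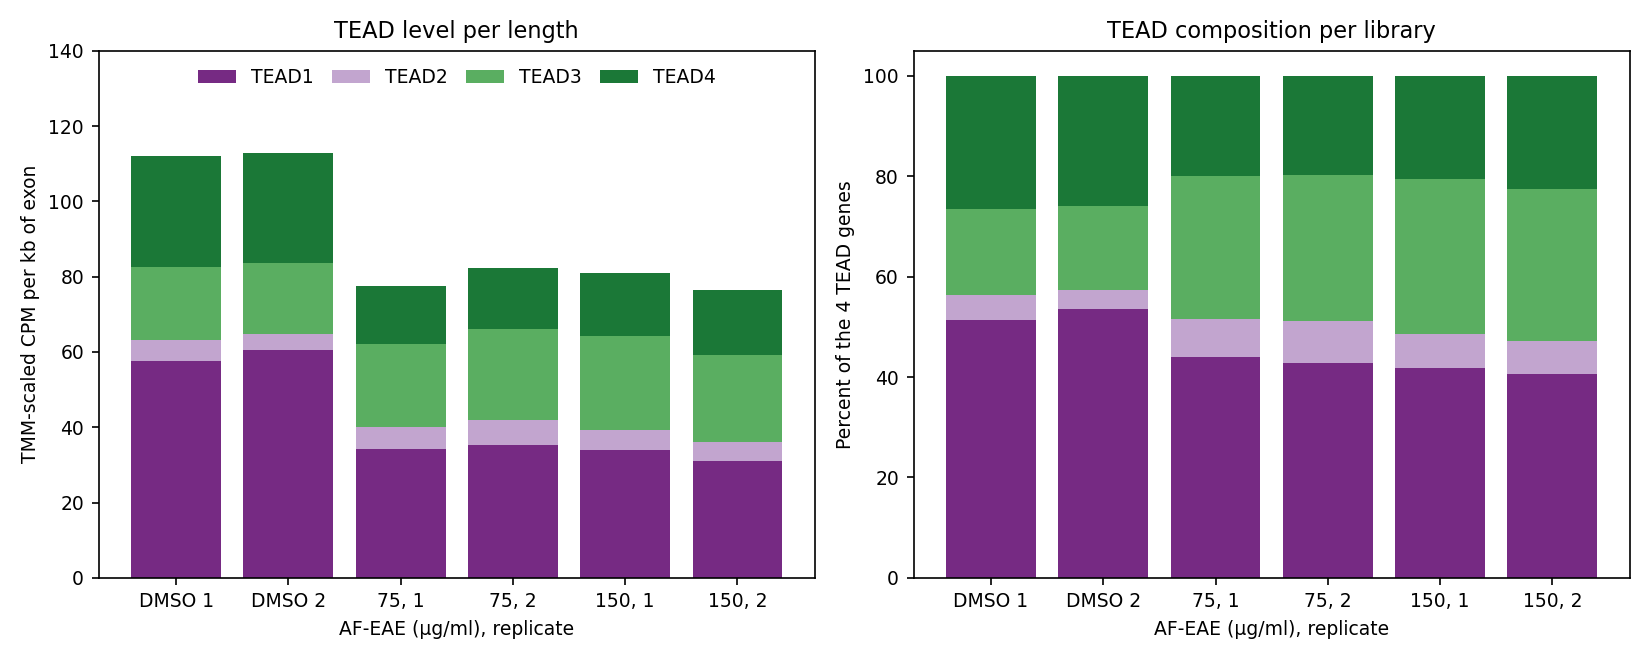
TEAD transcripts per library: level per kb of merged exon (TMM-scaled CPM per kb) on the left and percent of the 4-gene sum on the right, for 2 libraries of each of DMSO, 75 µg/ml and 150 µg/ml. TEAD1 goes from 51.3% and 53.6% with DMSO to 40.6% and 41.8% at 150 µg/ml, and TEAD3 from 16.7% and 17.3% to 30.2% and 30.8%.

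LATS2 (ENSG00000150457.9, chr13:20973032-21061547, minus strand), a kinase that phosphorylates YAP and TAZ and is itself known as a YAP target, was at 84.3 and 74.5 CPM with DMSO, 50.3 and 47.5 CPM at 75 µg/ml, and 65.8 and 50.9 CPM at 150 µg/ml. All treated libraries lay below DMSO, with a wide gap between the libraries of 150 µg/ml. LATS2 fell, with log2 fold changes of -0.70 (SE 0.0983, adjusted p = 2.3e-05) at 75 µg/ml and -0.45 (SE 0.0966, adjusted p = 8.7e-04) at 150 µg/ml. At 150 µg/ml the value was -0.28 without replicate 2 of that dose, -0.64 without replicate 1 and -0.26 under total-count scaling, all called. The doses differed by 0.25 (SE 0.0999, adjusted p = 0.0811), a value of 0.065 without replicate 1 of 150 µg/ml and 0.43 without replicate 2. This difference was called under total counts, with no filter, with the replicate block and with only the compared groups. It was not called with DESeq2 or limma-voom.

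LATS1 (ENSG00000131023.13, chr6:149658153-149718256, minus strand), the related kinase, was at 46.7 and 49.6 CPM with DMSO, 43.3 and 43.5 CPM at 75 µg/ml, and 56.5 and 51.3 CPM at 150 µg/ml. The lower dose lay below DMSO and the higher dose above it. Against DMSO the log2 fold changes were -0.15 (SE 0.079, adjusted p = 0.149) and 0.16 (SE 0.0774, adjusted p = 0.0907), and neither passed the test. LATS1 was higher at 150 than at 75 µg/ml by 0.31 (SE 0.0778, adjusted p = 0.00824). That call ended without replicate 1 of 150 µg/ml (adjusted p = 0.113).

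The ratio of LATS2 to LATS1 per kb was 2.8 and 2.33 with DMSO, 1.8 and 1.69 at 75 µg/ml, and, at 150 µg/ml, 1.8 and 1.54. The treated libraries lay below both DMSO libraries, and LATS2 exceeded LATS1 in each library.

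SAV1 (ENSG00000151748.15, chr14:50632058-50668331, minus strand), the scaffold that holds the MST kinases, was at 64.7 and 68.7 CPM with DMSO, 56.1 and 54.8 CPM at 75 µg/ml, and 62.5 and 65.5 CPM at 150 µg/ml. The lower dose lay below both other groups, and the higher dose overlapped DMSO. SAV1 fell by 0.27 on the log2 scale at 75 µg/ml (SE 0.0694, adjusted p = 0.00555). At 150 µg/ml the log2 fold change was -0.06 (SE 0.0685, adjusted p = 0.5), and between the doses SAV1 was higher at 150 µg/ml by 0.21 (SE 0.0692, adjusted p = 0.0403). That call held in 8 of 15 alternatives and ended without any 1 of the 4 treated libraries. Under total-count scaling the values against DMSO were -0.14 (adjusted p = 0.121) and 0.13. SAV1 shares 14.9% of its exon bases with ATL1, at 7.19 and 7.33 CPM with DMSO and 12.3 to 13.5 CPM in the treated libraries.

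NF2 (ENSG00000186575.19, chr22:29603556-29698598, plus strand), whose product merlin links the cell cortex to LATS, was at 35.1 and 29.5 CPM with DMSO, 16.4 and 18.1 CPM at 75 µg/ml, and 17.2 and 18.5 CPM at 150 µg/ml. The treated groups overlapped each other and lay well below DMSO. NF2 fell to 0.534 and 0.552 times the DMSO level, with log2 fold changes of -0.905 (SE 0.114, adjusted p = 6.8e-06) and -0.857 (SE 0.113, adjusted p = 5.8e-06). The doses differed by 0.05 (SE 0.119, adjusted p = 0.828). Counts do not tell mutated from intact NF2 RNA.

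**Figure D3:**
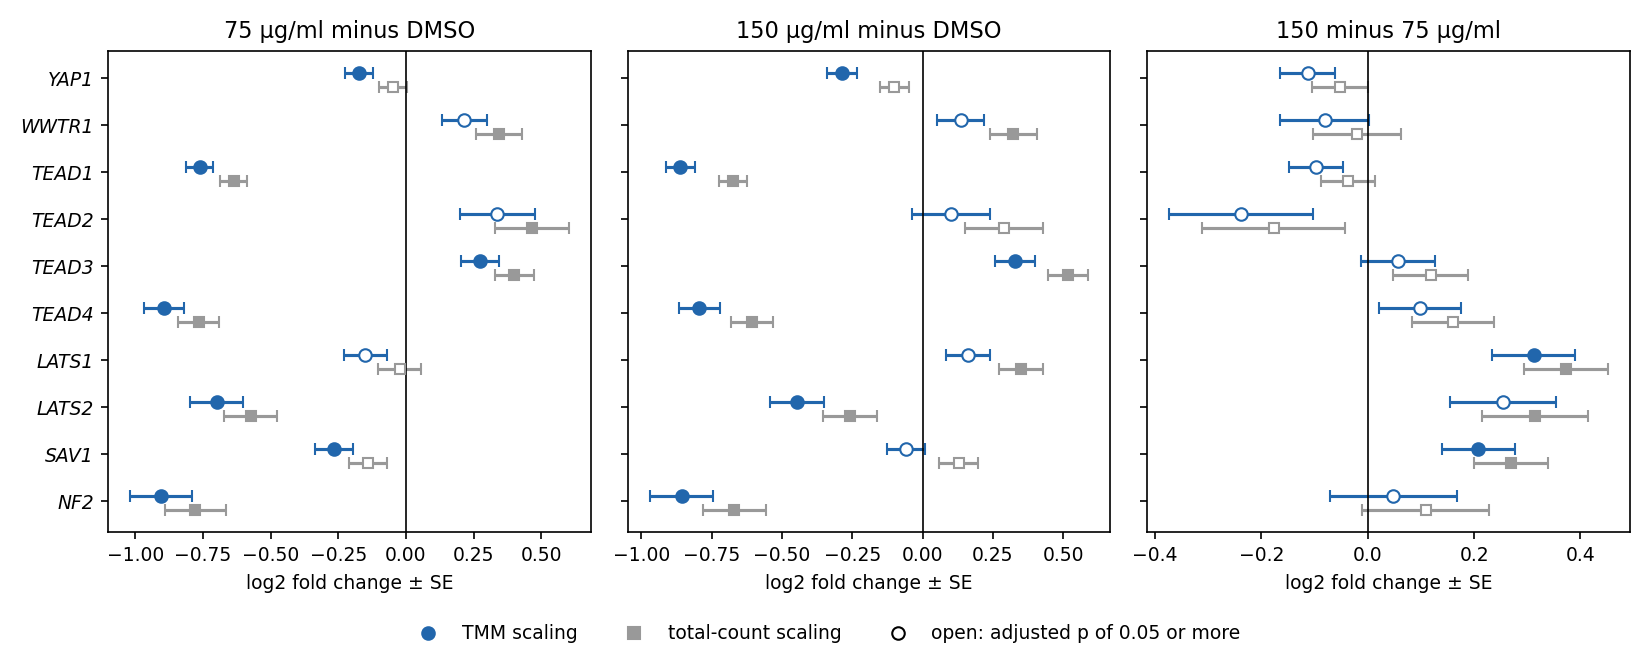
Log2 fold changes (horizontal axis, with SE) of the 10 genes at 75 µg/ml against DMSO, 150 µg/ml against DMSO, and 150 against 75 µg/ml, 1 panel each, with blue circles for TMM scaling, grey squares for total-count scaling and filled symbols where the adjusted p was under 0.05. TEAD1, TEAD4, NF2 and LATS2 lie furthest below 0 against DMSO, and between the doses LATS1 and SAV1 are filled with TMM, joined by LATS2 with total counts.

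In DMSO, the order per kb of merged exon ran from TEAD1 at 59.0 CPM per kb through YAP1 at 36.2, TEAD4 at 29.4, TEAD3 at 19.1 and LATS2 at 14.2 to SAV1 at 11.8 and WWTR1 at 11.5, then LATS1 at 5.57, TEAD2 at 4.95 and NF2 at 4.51. SAV1 and WWTR1 overlapped between libraries, as did LATS1 with TEAD2 and TEAD2 with NF2, so their order is not resolved. At 75 µg/ml no neighbours in the order overlapped, and it ran TEAD1, YAP1, TEAD3, TEAD4, WWTR1, SAV1, LATS2, TEAD2, LATS1 and NF2, from 34.7 to 2.41 CPM per kb. At 150 µg/ml TEAD1 and YAP1 were close, at 32.5 and 29.6 CPM per kb, without overlap. TEAD3 came next at 24.0, before TEAD4 at 17.0 and WWTR1 at 12.7. SAV1 at 11.4 and LATS2 at 10.5 overlapped, and LATS1 at 6.24, TEAD2 at 5.31 and NF2 at 2.49 closed the order. These ranks depend on the length used: with the longest coding transcript in place of merged exons SAV1 was at 21.8 CPM per kb in DMSO, above TEAD3.

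Around the 10 components, 51 other genes of the pathway were listed, and 46 passed the filter. At 75 µg/ml 25 of the 46 were called, 5 higher and 20 lower, and at 150 µg/ml 29, 7 higher and 22 lower. Between the doses 14 were called, 5 higher and 9 lower. The shares over all genes, in either direction, were the 38.6%, 51.5% and 22.0% given above. Among genes of at least 10 CPM they were 51.0%, 65.3% and 32.0%. The total number called is therefore no result about the pathway genes. Against DMSO, the lower calls were a larger share of the 46 than the 19.4% and 25.7% called lower over all genes. Whether this excess is particular to the pathway was not tested. The median log2 fold changes of the 46 were -0.20, -0.11 and -0.02, against 0.01, 0.03 and 0.00 over all genes. Under total-count scaling the calls were 9 higher and 12 lower at 75 µg/ml, 17 and 14 at 150 µg/ml, and 12 and 5 between the doses. The balance of directions thus moved with the scaling, but not for these genes alone. Over all genes the calls also shifted upward, against DMSO as given above and between the doses to 2206 higher and 1345 lower. With total counts the medians of the 46 were -0.08, 0.08 and 0.05, still below the 0.14, 0.22 and 0.06 of all genes.

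Of the 4 genes of MST kinases and MOB1, 2 fell at 75 µg/ml, and at 150 µg/ml 3 fell and 1 rose. Over all genes tested, 38.6% and 51.5% were called at these doses. STK3 was at 32.6 and 31.0 CPM with DMSO, 26.1 and 24.1 CPM at 75 µg/ml, and 25.9 and 20.7 CPM at 150 µg/ml. STK3 fell, with log2 fold changes of -0.34 (SE 0.11, adjusted p = 0.0207) at 75 µg/ml and -0.45 (SE 0.111, adjusted p = 0.00249) at 150 µg/ml. STK4 fell, with log2 fold changes of -0.22 (SE 0.0466, adjusted p = 0.00123) at 75 µg/ml and -0.12 (SE 0.0464, adjusted p = 0.0462) at 150 µg/ml. These calls ended under total-count scaling, with -0.21 and -0.26 for STK3 and -0.09 and 0.07 for STK4. MOB1A, a coactivator of LATS, fell by 0.19 at 150 µg/ml (SE 0.0487, adjusted p = 0.0039), a value of 0.00 under total-count scaling. MOB1B, its close relative, named here after its values were seen, rose by 0.23 at 150 µg/ml (SE 0.0624, adjusted p = 0.0048), a value of 0.42 under total-count scaling.

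Of the 24 upstream regulators tested, 3 rose and 10 fell at 75 µg/ml, and 2 rose and 11 fell at 150 µg/ml. Over all genes 38.6% and 51.5% were called in either direction, so the total number called is no result about the upstream regulators. The lower calls were a larger share of the 24 than the 19.4% and 25.7% called lower over all genes. Whether this excess is particular to the upstream regulators was not tested. Under total-count scaling 6 rose and 7 fell at 75 µg/ml, and 8 rose and 8 fell at 150 µg/ml. The largest rise among the 24 was that of MAP4K4, named here after its values were seen. Its log2 fold changes were 0.63 (SE 0.045, adjusted p = 9.0e-09) at 75 µg/ml and 0.715 (SE 0.045, adjusted p = 5.6e-10) at 150 µg/ml. WWC1, which encodes KIBRA, a partner of merlin, was at 161 and 153 CPM with DMSO, 73.8 and 79.9 CPM at 75 µg/ml, and 51.7 and 52.6 CPM at 150 µg/ml. Its levels stepped down from group to group without overlap. WWC1 fell, with log2 fold changes of -1.03 (SE 0.0609, adjusted p = 9.5e-10) at 75 µg/ml and -1.59 (SE 0.0632, adjusted p = 1.7e-12) at 150 µg/ml. It was lower at 150 than at 75 µg/ml, with -0.56 (SE 0.0655, adjusted p = 1.1e-05). FAT1, a giant protocadherin at the cell surface, fell, with log2 fold changes of -0.92 (SE 0.044, adjusted p = 6.2e-11) at 75 µg/ml and -1.22 (SE 0.0444, adjusted p = 4.8e-13) at 150 µg/ml.

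All 6 tested genes whose products bind YAP, TAZ or LATS fell at both doses (under total-count scaling 4 and 5 of them). Over all genes tested, 19.4% were called lower at 75 µg/ml and 25.7% at 150 µg/ml. AMOTL2 and PTPN14 among them are also on the target list given below. AMOTL2, of the angiomotins that hold YAP at junctions, was at 251 and 243 CPM with DMSO, 109.7 and 116 CPM at 75 µg/ml, and 116 and 87.8 CPM at 150 µg/ml. It fell, with log2 fold changes of -1.13 (SE 0.0842, adjusted p = 1.5e-08) at 75 µg/ml and -1.28 (SE 0.0848, adjusted p = 1.1e-09) at 150 µg/ml. PTPN14, a phosphatase that binds YAP, fell, with log2 fold changes of -0.48 (SE 0.0465, adjusted p = 4.0e-07) at 75 µg/ml and -0.70 (SE 0.0468, adjusted p = 1.2e-09) at 150 µg/ml.

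The 10 genes of STRIPAK, a phosphatase complex that acts against the MST kinases, went both ways. At 75 µg/ml 2 rose and 2 fell, and at 150 µg/ml 3 rose and 2 fell, where 38.6% and 51.5% of all genes were called. Under total-count scaling 3 rose and 1 fell, and 7 rose and 1 fell. STRIP2, a striatin-interacting subunit, rose by 0.33 (SE 0.0553, adjusted p = 1.6e-04) at 75 µg/ml and 0.64 (SE 0.0546, adjusted p = 3.0e-08) at 150 µg/ml. PPP2R1A, the scaffold subunit of its phosphatase, fell, with log2 fold changes of -0.34 (SE 0.0502, adjusted p = 4.4e-05) at 75 µg/ml and -0.48 (SE 0.0504, adjusted p = 3.7e-07) at 150 µg/ml. Of the TEAD cofactors, VGLL4, which competes with YAP for TEAD, rose by 0.28 at 150 µg/ml (SE 0.106, adjusted p = 0.0337). That call ended with DESeq2, at an adjusted p under 0.01, without DMSO replicate 1 and without replicate 2 of 150 µg/ml. Of its exon bases, 23.7% overlap ATG7 and a further gene. VGLL1 and VGLL2 had 0 counts in every library, below the level of 3 reads given above.

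**Figure D4:**
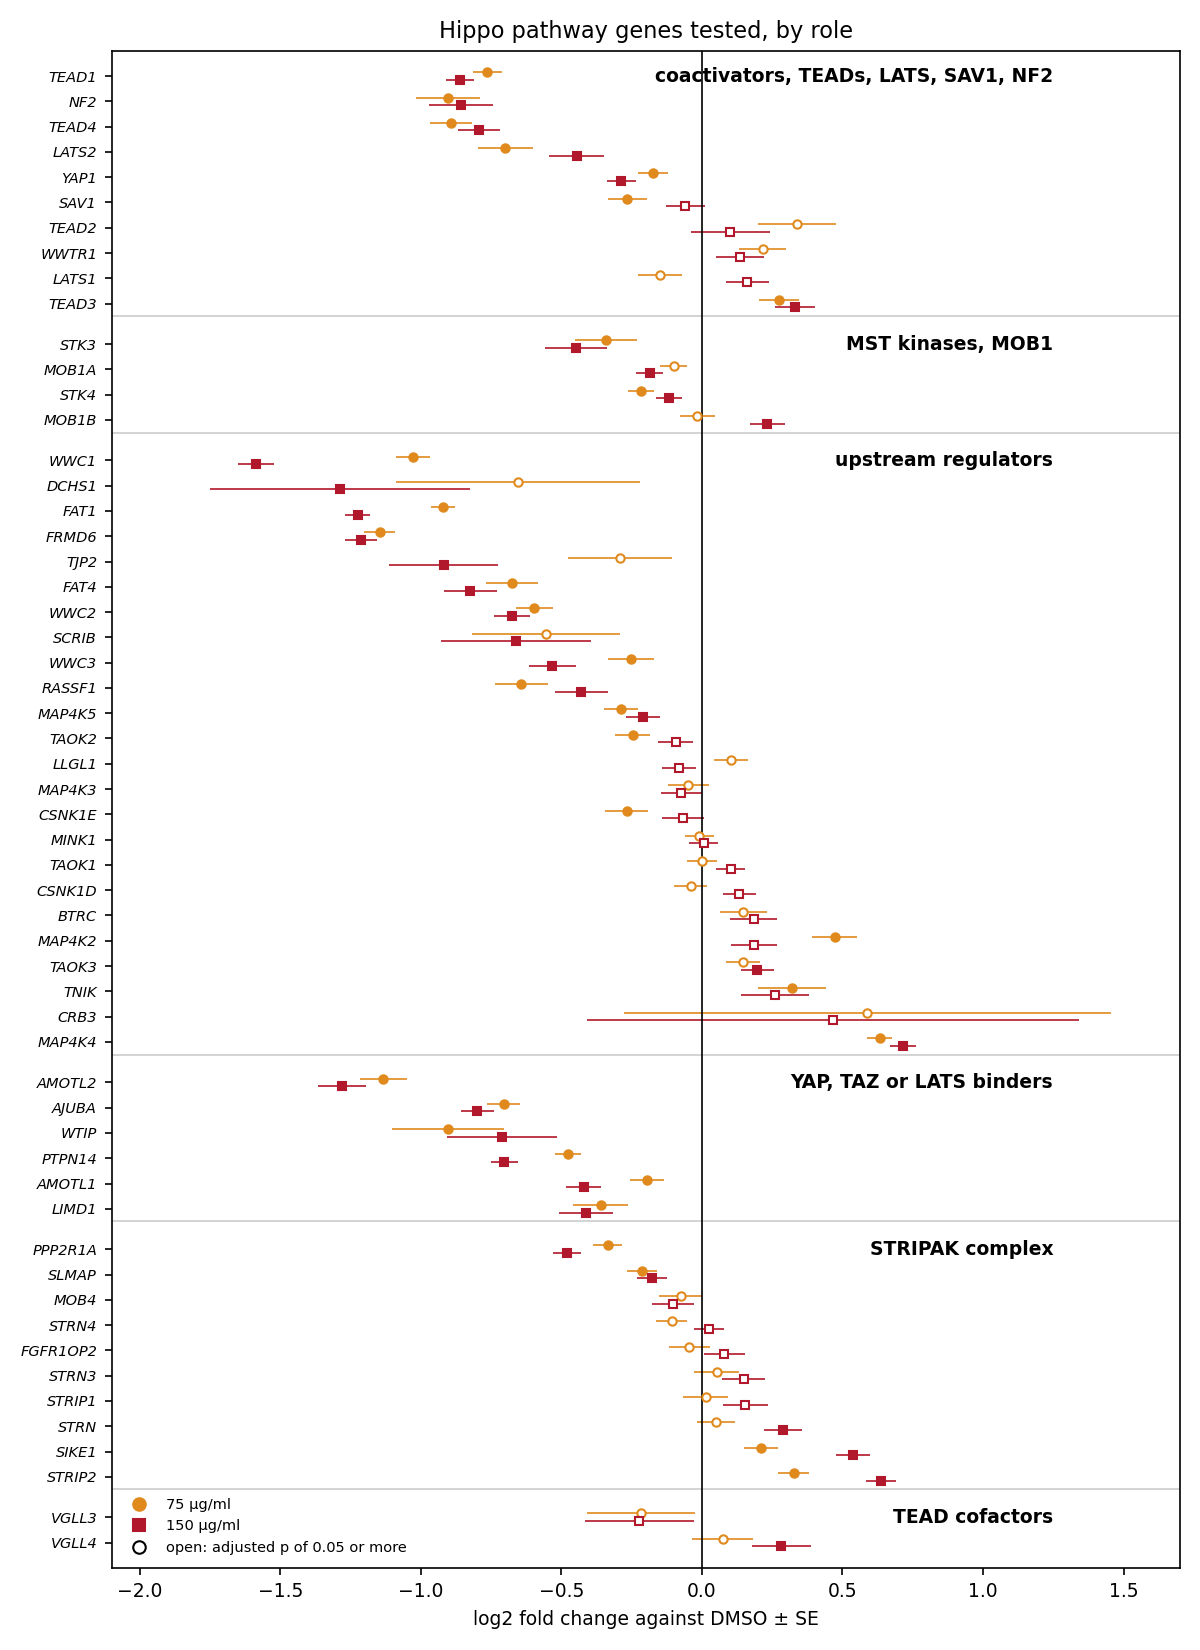
Log2 fold change against DMSO (horizontal axis, with SE) of every Hippo gene tested, by role, with circles for 75 µg/ml, squares for 150 µg/ml and open symbols where the adjusted p was 0.05 or more. All 6 genes that bind YAP, TAZ or LATS lie below 0, and WWC1 lies lowest at 150 µg/ml (-1.59). Over all genes tested, 19.4% were called lower at 75 µg/ml and 25.7% at 150 µg/ml.

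LATS2, AMOTL2 and PTPN14 also belong to a written list of 22 YAP, TAZ and TEAD target genes, of which 21 fell at 75 µg/ml, where 19.4% of all genes fell. At 150 µg/ml 20 fell and 1 rose, where 25.7% of all genes fell and 25.8% rose. Without those 3 genes the counts were 18 of 19 lower, and 17 lower with 1 higher. The list was made with these results known and is no independent evidence of its direction.

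The genes most like YAP1 over the 6 libraries, by the root mean square difference of mean-centred log2 CPM among 9507 genes, were FANCI (0.01), TPGS2 (0.0157) and SPCS3 (0.0169). The difference was under 0.1 for 1683 genes. Since YAP1 itself changed little, this threshold also admits genes that changed little, so the count does not show a shared pattern. Those most like WWTR1 were NRSN2 (0.0362), ANKZF1 (0.0373) and FAM172A (0.0407), with 211 genes under 0.1.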

How the data were processed

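The authors deposited 1 table of unnormalised gene counts per library, made with HISAT2 2.2.1 on hg38 and HTSeq 2.0.2, per the submitters' processing notes. For the counting options, strand setting and annotation release the sources used here give nothing. Summary rows (no feature 6.32% to 7.98%, ambiguous 10.95% to 11.48%) were left out. Rows were matched to GENCODE 29 (GRCh38) for symbols, coordinates and exon lengths.

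Genes were filtered with filterByExpr, scaled by TMM and tested with edgeR 4.0.16 (quasi-likelihood, group means, all 6 libraries), with Benjamini-Hochberg adjustment over 15589 genes. The biological coefficient of variation was 5.08%. The script was tested on simulated data. Alternatives used other scaling, filters, DESeq2 1.42.0, limma-voom (limma 3.58.1), a replicate block, the compared groups alone, a stricter threshold, and each library left out.

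The members and lists were chosen with earlier results of these data known. All 10 members were named, with STK3, STK4 and, for each other role, at most 2 genes with the smallest p among those called at 150 µg/ml. MOB1B and MAP4K4 were added after their values were seen. The 3 genes nearest YAP1 and WWTR1 in pattern had a mean of at least 10 CPM. The summed level of the leukocyte marker list is not reported here.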

Additional observations from a re-analysis of the deposited data

How the results depend on the processing

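Each member's fold change was recomputed under 15 alternatives. TEAD1, TEAD4, LATS2 and NF2 were called lower at both doses in all 15. The direction turned in 4 cases, all for differences that had not passed the test: SAV1 at 150 µg/ml against DMSO was 0.13 under total counts, WWTR1 there was -0.037 without DMSO replicate 1 (up to 0.321 without replicate 2), TEAD2 there was -0.077 without DMSO replicate 2 (up to 0.299 without replicate 1), and NF2 between the doses was -0.018 without replicate 1 of 75 µg/ml (up to 0.123 without replicate 2). Between the doses, 1 member was called with DESeq2 and 1 at an adjusted p under 0.01, and leaving out 1 library gave 0 to 3. The 0 came from edgeR without replicate 1 of 150 µg/ml, where 3 had an unadjusted p under 0.05. Other tools were not run with that library left out. Over all 15589 genes, DESeq2 called 978 higher and 1577 lower between the doses. An adjusted p under 0.01 left 722 and 1161, against 1482 and 1951 under 0.05. For the other pathway genes between the doses, 6 were called at an adjusted p under 0.01 and 6 to 14 with 1 library left out. At 75 µg/ml, 5 to 8 members were called with 1 library left out, 5 without replicate 2 of that dose. With the longest coding transcript as length, the WWTR1 to YAP1 ratio was 0.457, 0.6 and 0.614 (DMSO, 75 and 150 µg/ml), and the TEAD1 share was 44.5% and 42.2% at the doses. The cause of these changes, beyond the fewer libraries or other lengths used, was not tested.

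Over all genes tested, deviations of same-numbered libraries from their group means correlated at 0.068, 0.043 and 0.003. Genes of every level entered these correlations, so they cannot decide whether the replicate numbers pair the libraries. With the replicate number as a block, 9, 6 and 3 members and 25, 30 and 15 other pathway genes were called (75 against DMSO, 150 against DMSO, 150 against 75 µg/ml). Over all 15589 genes the block gave 3125 higher and 3167 lower, 4110 and 4084, and 1657 and 2119 in the same order. Without it the counts were 2989 and 3026, 4022 and 4000, and 1482 and 1951, so more genes were called with the block in each comparison. The block added WWTR1 (adjusted p = 0.00858) and TEAD2 (adjusted p = 0.0454), both higher at 75 µg/ml. Only 2 libraries per group limit the precision of every value above.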
